A study of Mus musculus with 8 samples.

Results

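The genes described here are those through which cells show peptides to T cells: the mouse histocompatibility genes, whose symbols start with H2-, and 10 genes that load or control them (B2m, Tap1, Tap2, Tapbp, Psmb8, Psmb9, Psmb10, Nlrc5, Ciita and Cd74). Members were picked out of the table by symbol, and 54 of the 24963 genes in the table were members, 44 of them H2 genes. Their mRNA was measured by RNA-seq in whole uterine tissue at gestation day 3.5 (GD3.5). The study compared 4 Nr2f2 f/f uteri with 4 Nr2f2 d/d uteri to ask what the uterus loses or gains without the orphan nuclear receptor NR2F2. Nr2f2 f/f mice carry floxed alleles and no Cre and served as wild type. Nr2f2 d/d mice carry the same floxed alleles and Cre knocked into 1 Pgr allele (Pgr Cre/+), so that Nr2f2 is removed from Pgr-expressing cells. Only the Nr2f2 d/d mice had the Pgr Cre allele, and its presence and the loss of Nr2f2 cannot be told apart. The labels give the strain as C57B6/J and the age at mating as 8 weeks, while the methods give 2 to 3 months and vasectomized males, by which the uteri held no embryo.

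Class I molecules are built from a heavy chain, the light chain beta-2 microglobulin and a peptide that the proteasome cuts and the TAP transporter carries into the endoplasmic reticulum. Nearly every nucleated cell can make them, and interferon gamma raises them through the factor NLRC5. Class II molecules are made mainly by dendritic cells, macrophages and B cells under the factor CIITA, and are loaded with peptides from endocytosed protein after the invariant chain CD74 has guided them there. In the uterus both kinds matter because the mother has to accept an embryo that carries foreign copies of these genes.

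The largest difference was that of H2-M9, a nonclassical class I gene, which was close to undetected in Nr2f2 f/f and reached 1.22 to 2.69 FPKM in Nr2f2 d/d. Psmb9, an immunoproteasome subunit that trims peptides for class I, rose 1.61-fold. FPKM are fragment counts scaled to the length of the gene and the total of the library, and fold changes are on the log2(FPKM + 0.5) scale throughout. These were the 2 members with an adjusted p under 0.05 in limma's moderated test, of 33 that could be tested. Over all 14323 tested genes, 2.62% passed this threshold. H2-M9 passed the filter on low values through its Nr2f2 d/d group only and had to differ once tested, which leaves 1 member, Psmb9, to set beside that share. The classical class I chains H2-K1 and H2-D1 and the immunoproteasome subunit Psmb8 had their 4 Nr2f2 d/d values above their 4 Nr2f2 f/f values and did not pass the adjustment. The class II chains H2-Aa, H2-Ab1 and H2-Eb1 and Cd74 were higher on average, with groups that overlapped.

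At the threshold of the study's methods, an unadjusted p under 0.05 with a fold change of at least 1.4, 12 members were higher in Nr2f2 d/d, where 4.7% of all tested genes were. H2-M5 was the 1 member that was lower, where 4.1% of all tested genes were. In 9 members all Nr2f2 d/d values lay above all Nr2f2 f/f values, as they did in 5.49% of tested genes, and H2-M5 again was the 1 member with all of them below, against 9.91% of tested genes. The log2 difference was positive in 25 and negative in 8 of the 33 tested members, with a median of 0.38, while over all tested genes it was positive in 6686 and negative in 7637, with a median of -0.019. H2-M9 is among the 12 and the 9. The count of 13 members at this threshold fell to 6 with quantile normalization, where H2-D1, Psmb8, H2-Q4, H2-Aa, H2-Ab1, H2-Eb1 and Cd74 no longer met it. It fell to 5 without Nr2f2 d/d replicate 1, to 8 without Nr2f2 f/f replicate 1 and to 8 without Nr2f2 f/f replicate 4. Nr2f2 d/d replicate 1 was the highest library for 21 of the 33 tested members, and the lowest library was Nr2f2 f/f replicate 1 or 4 for 23.

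The remaining 21 members fell below the filter for testing, a mean of 0.5 FPKM over the 8 libraries. Of these, 7 were listed at 0 in all 8 libraries (H2-Ea-ps, H2-M10.4, H2-M10.5, H2-Q6, H2-Q7, H2-Q9 and H2-T9) and 14 had low values. H2-Ea-ps is the E alpha chain gene, which is silent in the b haplotype of C57BL/6 mice. H2-Q6, H2-Q7 and H2-Q9 are near copies of each other, and their listed 0 does not show that they were silent. Fragments of such copies can be counted for the wrong member, so all values of the H2 class I genes are uncertain to that extent.

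Libraries held about 61500000 to 92700000 fragments, estimated from short single-exon genes whose FPKM become whole fragments at 1 total per library. At these depths 3 fragments on a gene of 1 kb are worth 0.0324 to 0.0488 FPKM, a limit that covers counting error only. The mRNA of Nr2f2 itself averaged 24.1 ± 1.80 FPKM in Nr2f2 f/f and 8.93 ± 1.36 FPKM in Nr2f2 d/d (SD, n = 4 each), a log2 difference of -1.39 (adjusted p = 0.00549 from limma). Markers of epithelium, stroma and smooth muscle were all present, as in a whole uterus. Nothing in the labels says that a mouse gave more than 1 library, and p-values measure the spread between these uteri.

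Sequence next to the starts of the 2 members that passed the adjustment is shown first, because the RefSeq starts of Psmb9 and Tap1, which are read in opposite directions, lie 225 bases apart, and because H2-M9 is the member with the largest difference. Both are on the minus strand of chromosome 17, written 5′ to 3′ in the direction of Psmb9 and of H2-M9, from RefSeq on GRCm38.p6. The first lies at chr17:34187331-34187555, between the RefSeq start of Psmb9 at 34187330 and that of Tap1 at 34187556. The GENCODE annotation used for the coordinates of genes begins Psmb9 farther upstream, at 34187764, so that there the genes overlap and this stretch lies inside Psmb9. The second is the 250 bases at chr17:36642664-36642913, before the farther of 2 H2-M9 starts. Capitals mark CCAAT on the strand shown, or ATTGG where it lies on the other strand. CCAAT is the core of the Y box, a promoter element of many class I and class II genes that the factor NF-Y binds.
Psmb9 to Tap1: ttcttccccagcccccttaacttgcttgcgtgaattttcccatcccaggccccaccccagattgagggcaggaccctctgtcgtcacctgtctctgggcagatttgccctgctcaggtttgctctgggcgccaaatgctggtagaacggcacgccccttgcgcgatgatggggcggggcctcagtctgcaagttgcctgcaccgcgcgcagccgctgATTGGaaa
H2-M9 upstream: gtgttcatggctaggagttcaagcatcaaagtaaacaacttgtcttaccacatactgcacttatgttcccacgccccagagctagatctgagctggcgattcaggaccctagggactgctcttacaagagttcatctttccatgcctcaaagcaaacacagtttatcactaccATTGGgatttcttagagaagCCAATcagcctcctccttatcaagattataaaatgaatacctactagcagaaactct

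In windows from 250 bases before to 50 after each RefSeq start, searched on both strands, CCAAT was in 35 of the 41 promoters found for 38 members, 85.4%, and in 37.4% of all 32851 promoters. The NR2F motif AGGTCA was in 26.8% of member promoters and 16.3% of all promoters, and GGGTCA in 24.4% and 13.7%. The motif of interferon-stimulated response elements was in 7.32% of member promoters and 3.44% of all. AGGTCA and GGGTCA differ in their first letter and cannot match at the same place on 1 strand. Both NR2F motifs were found for 5 members: H2-K1 and H2-D1, H2-M5, which was lower in Nr2f2 d/d, and H2-Q6 and H2-Q7, which were listed at 0 in all libraries. Neither of the printed stretches held a searched motif other than CCAAT. Many H2 genes are copies of each other, so their promoters are not independent, and a match is a description of letters, not a site of binding.

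H2-K1 and H2-D1 encode the classical class I heavy chains of this strain, which present peptides to CD8 T cells. H2-K1 (chromosome 17, 33996017 to 34000347, minus strand of mm10) had 349, 454, 466 and 306 FPKM in replicates 1 to 4 of Nr2f2 f/f and 771, 640, 590 and 536 FPKM in those of Nr2f2 d/d. Every Nr2f2 d/d uterus was above every Nr2f2 f/f uterus, with replicate 1 the highest (exact permutation p = 0.0286, the smallest that 4 against 4 can give). The log2 difference of H2-K1 was 0.70 (standard error 0.173, adjusted p = 0.0739 from limma). H2-D1 (chromosome 17, 35262730 to 35267499, plus strand) had 121, 147, 143 and 113 FPKM in Nr2f2 f/f and 225, 189, 182 and 174 FPKM in Nr2f2 d/d, in the same order. Again the groups did not overlap, and the log2 difference was 0.56 (standard error 0.119, adjusted p = 0.0517 from limma). Whichever library was left out H2-K1 met the study's threshold, and H2-D1 did except without Nr2f2 d/d replicate 1 (log2 difference 0.48). With quantile normalization H2-D1 missed the fold change of 1.4 (log2 difference 0.41). The FPKM of H2-K1 were 2.71 to 3.42 times those of H2-D1 in all 8 uteri. The symbol H2-L, also counted in this class, had no match in the GENCODE annotation. It stayed at 0.031 to 0.167 FPKM and was not tested, and such values do not show that a further chain gene was expressed.

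**Figure D1:**
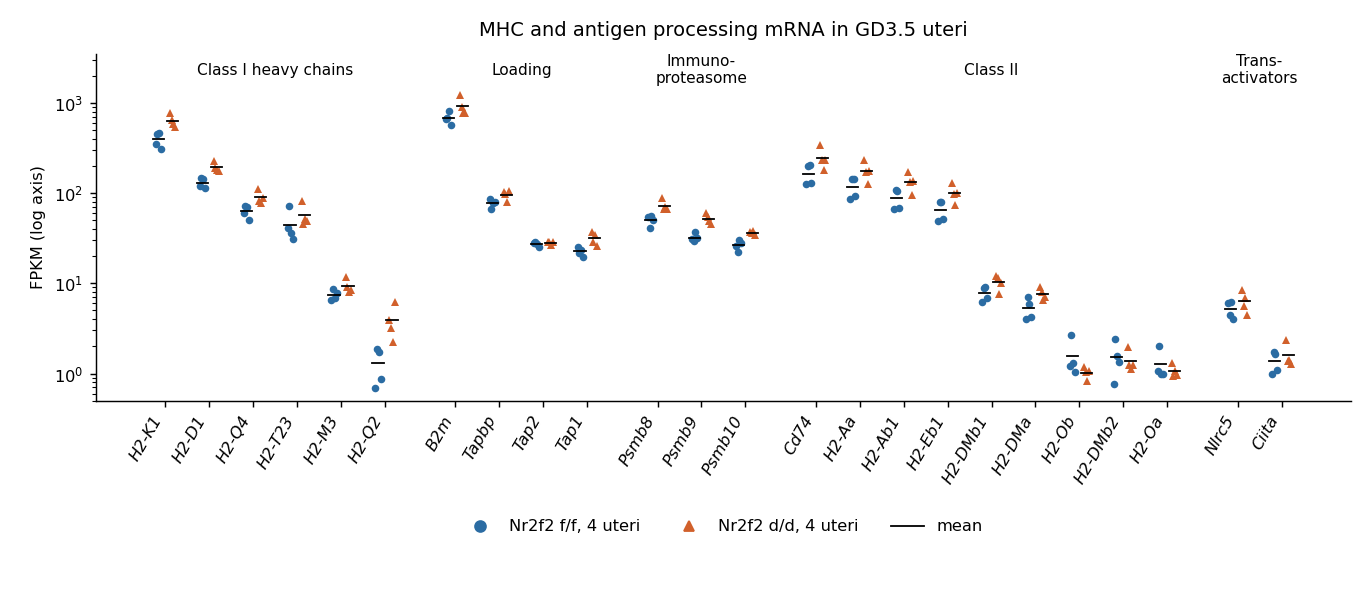
FPKM (log axis) of 24 members in each of 4 Nr2f2 f/f uteri (blue circles) and 4 Nr2f2 d/d uteri (orange triangles), ordered by role, with the mean of each group as a black line. H2-K1, H2-D1, H2-Q4, H2-Q2, Tap1 and the 3 immunoproteasome subunits do not overlap between the groups, while the class II genes do.

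B2m, the light chain shared by all class I molecules, was the most abundant member per kilobase. It had 656, 686, 818 and 569 FPKM in Nr2f2 f/f and 1235, 891, 776 and 775 FPKM in Nr2f2 d/d. Nr2f2 f/f replicate 3 lay above Nr2f2 d/d replicates 3 and 4, so the groups overlapped, and the log2 difference was 0.42 (standard error 0.182, adjusted p = 0.239 from limma). It fell to 0.26 without Nr2f2 d/d replicate 1, and B2m met the study's threshold when Nr2f2 f/f replicate 3 or Nr2f2 d/d replicate 3 or 4 was left out (at most 0.51). The FPKM of B2m were 1.51 to 1.88 times those of H2-K1 in Nr2f2 f/f and 1.32 to 1.6 times in Nr2f2 d/d.

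Tap1 and Tap2 encode the paired chains of the peptide transporter. Tap1 (chromosome 17, 34187553 to 34197225, plus strand) had 25.5, 21.9, 23.4 and 19.8 FPKM in Nr2f2 f/f and 37.5, 28.8, 33.9 and 25.9 FPKM in Nr2f2 d/d. The groups did not overlap, although Nr2f2 d/d replicate 4 was only just above Nr2f2 f/f replicate 1, and the log2 difference of Tap1 was 0.46 (standard error 0.129, adjusted p = 0.0998 from limma), under the fold change of 1.4. Tap1 reached it with median-ratio scaling (0.49) and in 3 of the 8 fits with 1 library left out, those without Nr2f2 f/f replicate 1 and Nr2f2 d/d replicates 2 or 4. Tap2 kept to 25.0 to 28.4 FPKM in Nr2f2 f/f and 26.9 to 28.7 FPKM in Nr2f2 d/d, a log2 difference of 0.05 (95% interval -0.10 to 0.19, adjusted p = 0.697 from limma). The ratio of Tap1 to Tap2 FPKM was 0.771 to 0.907 in Nr2f2 f/f and 0.913 to 1.3 in Nr2f2 d/d. This ratio was chosen after the values were seen and was given no test. Tapbp, which encodes tapasin, the bridge between the transporter and the heavy chain, had 66.7 to 85.0 FPKM in Nr2f2 f/f and 78.7 to 106 FPKM in Nr2f2 d/d, and its log2 difference was 0.31 (adjusted p = 0.182 from limma). Tap1 shares 3.9% of its exon bases with Psmb9 on the opposite strand, other annotated genes share 18.5% of those of Tap2 and 29.0% of those of Tapbp, and the library kit does not mark strand.

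The immunoproteasome subunits Psmb8, Psmb9 and Psmb10 take the place of the constitutive subunits Psmb5, Psmb6 and Psmb7 in cells exposed to interferon and in immune cells, and change which peptides are cut. Psmb9 (chromosome 17, 34181987 to 34187764, minus strand) had 31.0, 29.1, 37.0 and 31.7 FPKM in Nr2f2 f/f and 59.5, 54.5, 49.3 and 45.8 FPKM in Nr2f2 d/d. The groups stood well apart, and the log2 difference of Psmb9 was 0.69 (standard error 0.106, adjusted p = 0.0216 from limma). Psmb9 shares 5.8% of its exon bases with Tap1 on the opposite strand, so that fragments there cannot be told apart. Its adjusted p was under 0.05 in 4 of the 8 fits that left out 1 library and reached 0.0725 without Nr2f2 f/f replicate 1, 0.0640 without Nr2f2 f/f replicate 4, 0.0648 without Nr2f2 d/d replicate 1 and 0.0807 without Nr2f2 d/d replicate 2.

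Psmb8 (chromosome 17, 34197721 to 34201454, plus strand) had 55.0, 41.0, 55.0 and 49.9 FPKM in Nr2f2 f/f and 88.1, 66.9, 69.3 and 65.9 FPKM in Nr2f2 d/d. Replicate 1 was far above the other Nr2f2 d/d uteri, and the lowest of these was still above the highest Nr2f2 f/f uterus. The log2 difference of Psmb8 was 0.53 (standard error 0.129, adjusted p = 0.0726 from limma). Leaving out Nr2f2 f/f replicate 2 or Nr2f2 d/d replicate 1 took its fold change under the 1.4 of that threshold, at a lowest log2 difference of 0.43, and so did quantile normalization (0.46). A transcript on the opposite strand shares 14.7% of the exon bases of Psmb8. Psmb10 (chromosome 8, 105935735 to 105938444, minus strand), which lies outside the histocompatibility region, had 26.0, 22.5, 30.1 and 28.3 FPKM in Nr2f2 f/f and 36.9, 35.7, 38.5 and 33.9 FPKM in Nr2f2 d/d. Its groups did not overlap, and the log2 difference was 0.44 (standard error 0.0962, adjusted p = 0.0538 from limma), which is under the fold change the study asked for and reached it without Nr2f2 f/f replicate 3 (0.50).

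The ratio of a subunit to the one it replaces does not depend on the total of a library. For Psmb9 over Psmb6 the ratio of FPKM was 0.350, 0.445, 0.431 and 0.364 in Nr2f2 f/f and 0.699, 0.578, 0.473 and 0.502 in Nr2f2 d/d. All Nr2f2 d/d ratios were the higher, by 0.49 on the log2 scale (exact permutation p = 0.0286, adjusted p = 0.0429 over 3 ratios). For Psmb10 over Psmb7 the ratio was 0.322, 0.365, 0.373 and 0.344 in Nr2f2 f/f and 0.435, 0.438, 0.407 and 0.442 in Nr2f2 d/d. These groups did not overlap either, and differed by 0.30 on the log2 scale (exact permutation p = 0.0286, adjusted p = 0.0429 over 3 ratios). For Psmb8 over Psmb5 the ratio was 0.676, 0.601, 0.823 and 0.944 in Nr2f2 f/f and 1.72, 0.885, 0.906 and 1.1 in Nr2f2 d/d, and Nr2f2 f/f replicate 4 lay above 2 of the Nr2f2 d/d uteri. That difference of 0.57 on the log2 scale was within the spread (exact permutation p = 0.0857, adjusted p = 0.0857 over 3 ratios). Of the constitutive subunits themselves, 0 of 3 met the study's threshold in limma's test.

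**Figure D2:**
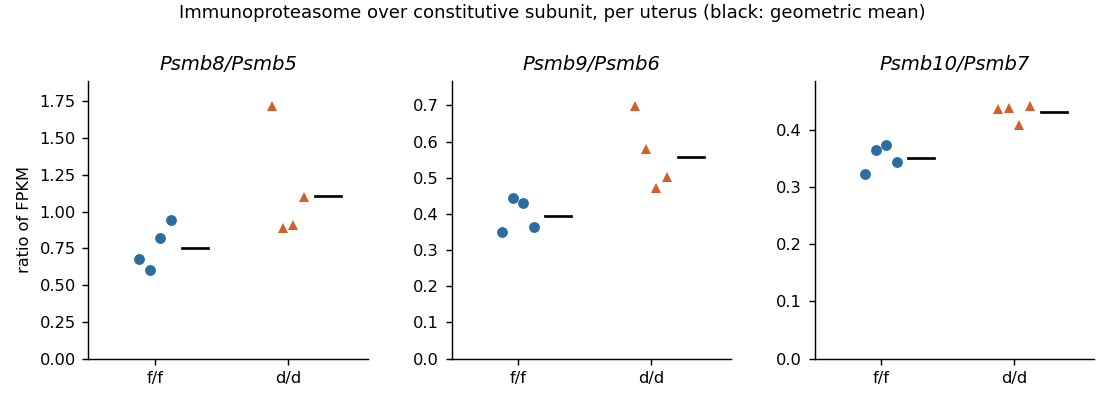
Ratio of the FPKM of each immunoproteasome subunit to that of the constitutive subunit it replaces, in each of 4 Nr2f2 f/f uteri (blue circles) and 4 Nr2f2 d/d uteri (orange triangles), with the geometric mean as a black line. The ratios for Psmb9 and Psmb10 do not overlap between the groups, and those for Psmb8 do.

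Nonclassical class I genes make proteins related to the classical chains, many of them with narrow expression or with other ligands. Every H2 symbol outside the other classes was counted here. Among them H2-K2, H2-T-ps, H2-Q5, H2-T10 and H2-Bl are annotated by GENCODE as pseudogenes or polymorphic pseudogenes, and all of these but H2-Bl were tested. Of the 30 members so counted, 6 were listed at 0, 12 were below the filter and 12 were tested. The tested members had log2 differences from -0.78 to 2.14 and a median of 0.19. The median over the 24 members with any fragment was 0.05. This class held both extremes among the members.

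H2-M9 (chromosome 17, 36639285 to 36642666, minus strand) had 0.046, 0.079, 0.137 and 0.047 FPKM in Nr2f2 f/f and 2.69, 2.13, 1.22 and 2.42 FPKM in Nr2f2 d/d. The lowest Nr2f2 d/d uterus, replicate 3, was far above the highest Nr2f2 f/f uterus. The log2 difference of H2-M9 was 2.14 (standard error 0.195, adjusted p = 0.00549 from limma), and on the FPKM themselves the Nr2f2 d/d mean was 27.3 times the Nr2f2 f/f mean. With 0.1 FPKM added before the log2 the difference was 3.62, and with 1 FPKM added it was 1.51. Genes of the H2-M9, H2-M1 and H2-M10 group are known for expression in sensory neurons of the vomeronasal organ, where their proteins go with pheromone receptors.

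The members around H2-M9 on the chromosome were scarce. H2-M1, 27.3 kb away, was at 0 in all Nr2f2 f/f libraries and at 0.016, 0, 0 and 0.043 FPKM in Nr2f2 d/d. H2-M11, 90.0 kb away, was at 0 in all Nr2f2 f/f libraries and at 0.08, 0.25, 0.128 and 0.273 FPKM in Nr2f2 d/d, about 5, 18, 12 and 25 fragments, so that all 4 Nr2f2 d/d uteri were above the worth of 3 fragments. No tested gene lay within 100 kb of H2-M9. The nearest tested genes, Trim26 at 194.5 kb and Trim39 at 367.0 kb, had log2 differences of 0.10 (adjusted p = 0.504 from limma) and -0.09 (adjusted p = 0.634 from limma).

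H2-M2 had 0, 0, 0.054 and 0.023 FPKM in Nr2f2 f/f and 0.554, 0.098, 0.083 and 0.092 FPKM in Nr2f2 d/d. The groups did not overlap, and replicate 1 carried most of the Nr2f2 d/d mean. The class II beta gene H2-Eb2 had 0.019, 0.024, 0.023 and 0.005 FPKM in Nr2f2 f/f, about 4, 5, 6 and 1 fragments, and 0.11, 0.046, 0.089 and 0.052 FPKM in Nr2f2 d/d, about 23, 11, 28 and 16 fragments. With H2-M11 these were the 3 members below the filter whose Nr2f2 d/d values all lay above the Nr2f2 f/f values, and none was tested. They are 3 of the 14 low members with a value above 0. The share over all genes below the filter was not counted, so nothing is concluded from this number.

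**Figure D3:**
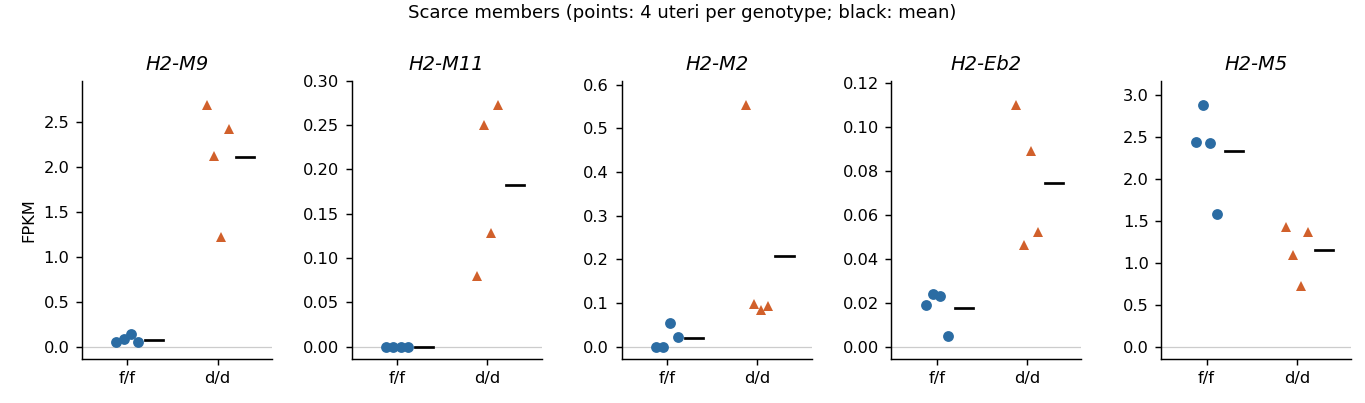
FPKM (linear axes, a separate scale for each gene) of 5 scarce members in 4 Nr2f2 f/f uteri (blue circles) and 4 Nr2f2 d/d uteri (orange triangles), with the mean as a black line. H2-M9, H2-M11, H2-M2 and H2-Eb2 are higher in every Nr2f2 d/d uterus, and H2-M5 is lower in every one.

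H2-M5 (chromosome 17, 36984061 to 36989537, minus strand) went the other way. It had 2.45, 2.89, 2.43 and 1.58 FPKM in Nr2f2 f/f and 1.43, 1.09, 0.728 and 1.37 FPKM in Nr2f2 d/d. The groups did not overlap (exact permutation p = 0.0286), and the log2 difference was -0.78 (standard error 0.195, adjusted p = 0.0744 from limma). H2-M3, which presents peptides that start with formylmethionine, had 6.56, 8.73, 6.79 and 7.91 FPKM in Nr2f2 f/f and 11.7, 9.16, 8.00 and 8.48 FPKM in Nr2f2 d/d. Its groups overlapped, and the log2 difference was 0.29 (adjusted p = 0.265 from limma), or 0.18 without Nr2f2 d/d replicate 1.

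H2-Q2 had 0.691, 1.89, 1.75 and 0.873 FPKM in Nr2f2 f/f and 3.93, 3.18, 2.21 and 6.23 FPKM in Nr2f2 d/d. All Nr2f2 d/d uteri were above all Nr2f2 f/f uteri, with replicate 4 the highest here. The log2 difference of H2-Q2 was 1.27 (standard error 0.326, adjusted p = 0.0799 from limma). H2-Q4, the most abundant nonclassical member in FPKM, had 60.4, 72.5, 70.3 and 49.7 FPKM in Nr2f2 f/f and 110, 82.4, 77.4 and 87.6 FPKM in Nr2f2 d/d. The groups again did not overlap, and the log2 difference was 0.50 (standard error 0.151, adjusted p = 0.117 from limma). H2-Q4 did not meet the study's threshold without Nr2f2 f/f replicates 1 or 4 or Nr2f2 d/d replicate 1, with a lowest log2 difference of 0.39, nor with quantile normalization (0.41), while H2-Q2 met it in all 8 fits. A transcript on the opposite strand shares 19.1% of the exon bases of H2-Q4.

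H2-T23 encodes Qa-1, which shows leader peptides of other class I chains to NKG2 receptors on NK and T cells. It had 41.0, 71.1, 36.0 and 30.8 FPKM in Nr2f2 f/f and 81.6, 45.6, 52.0 and 49.3 FPKM in Nr2f2 d/d. Nr2f2 f/f replicate 2 was above 3 of the Nr2f2 d/d uteri, and the log2 difference was 0.39 (95% interval -0.25 to 1.02, adjusted p = 0.457 from limma). Without that Nr2f2 f/f library it was 0.63 and met the study's threshold, and it was 0.20 without Nr2f2 d/d replicate 1 and 0.23 without Nr2f2 f/f replicate 4. H2-Q5, H2-T10, H2-T22, H2-T24, H2-T-ps and H2-K2 made up the rest of the tested nonclassical members, with overlapping groups and log2 differences from -0.58 to 0.36. Single libraries moved several of these: with 1 left out H2-T-ps ranged from -0.87 to -0.30 and met the study's threshold without Nr2f2 d/d replicate 4, H2-T24 ranged from -0.59 to -0.01 and met it without Nr2f2 f/f replicate 4, and H2-Q5 ranged from 0.16 to 0.48. H2-K2 turned from -0.11 to 0.18 without Nr2f2 f/f replicate 2, and H2-T10 from 0.06 to -0.20 without Nr2f2 f/f replicate 4 and to -0.02 without Nr2f2 d/d replicate 4.

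**Figure D4:**
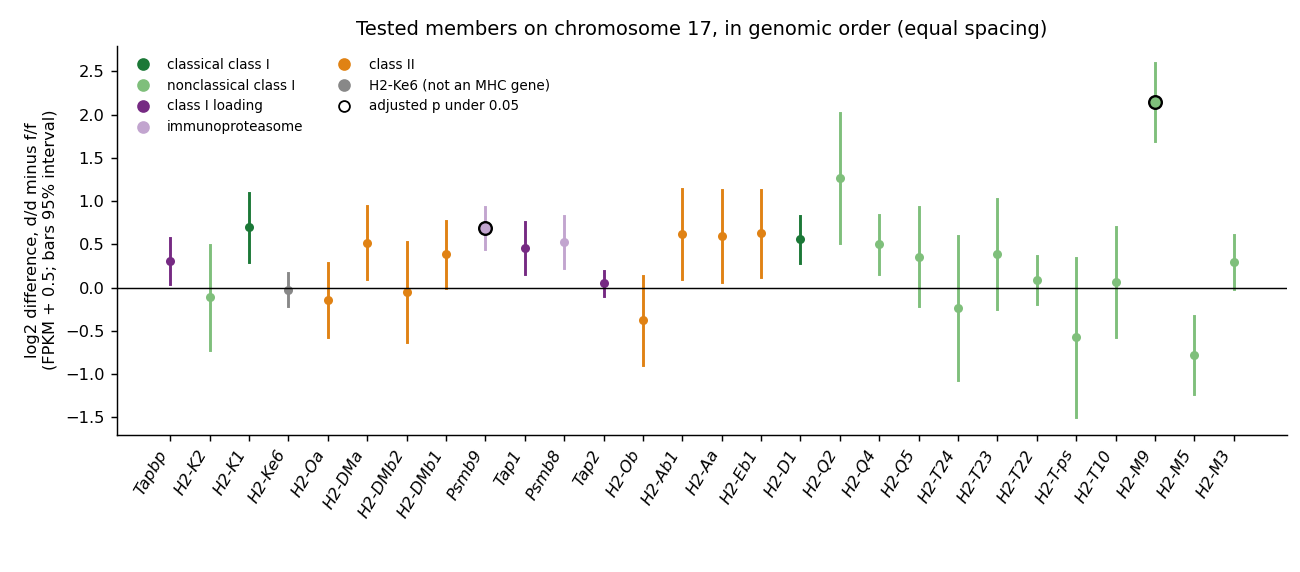
Log2 difference, Nr2f2 d/d minus Nr2f2 f/f (points), with its 95% interval (bars) for the tested members on chromosome 17, in genomic order at equal spacing and coloured by role. H2-M9 and Psmb9, outlined in black, passed the adjusted threshold, and H2-M5 has the lowest value.

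Class II molecules are pairs of an alpha and a beta chain, here H2-Aa with H2-Ab1 and the beta chain H2-Eb1, and Cd74 encodes the invariant chain. Cd74 had 126, 198, 205 and 130 FPKM in Nr2f2 f/f and 344, 231, 180 and 233 FPKM in Nr2f2 d/d. Nr2f2 d/d replicate 3 fell below Nr2f2 f/f replicates 2 and 3, so the groups overlapped. The log2 difference of Cd74 was 0.58 (standard error 0.237, adjusted p = 0.214 from limma).

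H2-Aa (chromosome 17, 34282744 to 34287823, minus strand) had 86.3, 143, 144 and 94 FPKM in Nr2f2 f/f and 231, 169, 127 and 175 FPKM in Nr2f2 d/d, a log2 difference of 0.59 (adjusted p = 0.198 from limma). H2-Ab1 had 65.9, 107, 107 and 69.0 FPKM in Nr2f2 f/f and 170, 133, 95.7 and 135 FPKM in Nr2f2 d/d, a log2 difference of 0.62 (adjusted p = 0.176 from limma). H2-Eb1 had 48.6, 79.1, 79.6 and 52.2 FPKM in Nr2f2 f/f and 128, 97.9, 73.5 and 100.05 FPKM in Nr2f2 d/d, a log2 difference of 0.63 (adjusted p = 0.161 from limma). In all 3 genes Nr2f2 f/f replicates 1 and 4 were the lowest, Nr2f2 d/d replicate 1 was the highest, and Nr2f2 d/d replicate 3 lay inside the Nr2f2 f/f range. The ratio of H2-Aa to Cd74 FPKM stayed within 0.671 to 0.749 over all 8 uteri, that of H2-Ab1 within 0.495 to 0.580 and that of H2-Eb1 within 0.372 to 0.429, while Cd74 itself spanned 126 to 344 FPKM. Cd74, H2-Aa, H2-Ab1 and H2-Eb1 met the study's threshold with all libraries and lost it with quantile normalization (log2 differences of 0.46 to 0.52, highest unadjusted p = 0.131 from limma). With 1 library left out in turn Cd74, H2-Aa and H2-Ab1 did so in 3 of 8 fits, those without Nr2f2 f/f replicates 2 or 3 or Nr2f2 d/d replicate 3. H2-Eb1 did so in 5 of 8, and not without Nr2f2 f/f replicates 1 or 4 or Nr2f2 d/d replicate 1 (log2 difference 0.50 to 0.77 over the 8 fits).

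H2-DMa and H2-DMb1 encode the DM exchange factor, which removes the invariant chain peptide from class II. H2-DMa had 4.04, 7.08, 5.88 and 4.24 FPKM in Nr2f2 f/f and 9.11, 8.09, 6.48 and 7.11 FPKM in Nr2f2 d/d. Nr2f2 f/f replicate 2 lay above the lowest Nr2f2 d/d uterus, and the log2 difference was 0.52 (adjusted p = 0.165 from limma). It did not meet the study's threshold without Nr2f2 f/f replicates 1 or 4 or Nr2f2 d/d replicates 1 or 2, with log2 differences of 0.41 to 0.66 over the 8 fits, nor with 1 FPKM added before the log2 (0.48). H2-DMb1 had 6.22, 8.80, 9.12 and 6.93 FPKM in Nr2f2 f/f and 11.98, 11.6, 7.60 and 10.1 FPKM in Nr2f2 d/d, again with overlap, and a log2 difference of 0.38 (adjusted p = 0.246 from limma). It met the study's threshold without Nr2f2 d/d replicate 3 (0.52).

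The tested class II genes left, H2-Oa, H2-Ob and H2-DMb2, had negative log2 differences, and none met the study's threshold. H2-Oa and H2-Ob encode DO, which inhibits DM and is known mainly from B cells. H2-Ob had 1.21, 2.69, 1.31 and 1.05 FPKM in Nr2f2 f/f and 1.18, 1.03, 0.832 and 1.06 FPKM in Nr2f2 d/d, with Nr2f2 f/f replicate 2 far above the rest and a log2 difference of -0.38 (adjusted p = 0.364 from limma), or -0.15 without that library. H2-Oa and H2-DMb2, a second DM beta chain gene, had log2 differences of -0.14 (adjusted p = 0.699 from limma) and -0.05 (adjusted p = 0.930 from limma). Without Nr2f2 f/f replicate 2 these turned to 0.04 and 0.15, and H2-DMb2 was at 0.02 without Nr2f2 d/d replicate 3. A gene on the opposite strand shares 22.8% of the exon bases of H2-Oa. The ratio of H2-Ob to H2-DMb1 FPKM was 0.144 to 0.306 in Nr2f2 f/f and 0.0888 to 0.109 in Nr2f2 d/d, a description that was chosen after the values were seen.

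The transactivators stood close to their controls. Nlrc5, which drives class I genes, had 6.04, 4.50, 6.13 and 4.05 FPKM in Nr2f2 f/f and 8.47, 5.57, 6.81 and 4.44 FPKM in Nr2f2 d/d. The groups overlapped, and the log2 difference was 0.25 (95% interval -0.22 to 0.72, adjusted p = 0.518 from limma). It ranged from 0.10 without Nr2f2 d/d replicate 1 to 0.39 without Nr2f2 d/d replicate 4. Ciita, which drives class II genes, had 1.00, 1.75, 1.64 and 1.09 FPKM in Nr2f2 f/f and 2.37, 1.39, 1.41 and 1.27 FPKM in Nr2f2 d/d. Apart from the high Nr2f2 d/d replicate 1 these values lay within the Nr2f2 f/f range, and the log2 difference was 0.17 (95% interval -0.29 to 0.63, adjusted p = 0.664 from limma), or 0.01 without that library. H2-Ke6 has an H2 symbol but encodes a steroid dehydrogenase, and its log2 difference was -0.02 (adjusted p = 0.890 from limma). The sign of so small a value turned with median-ratio scaling (0.004) and without Nr2f2 f/f replicate 3 (0.01) or Nr2f2 d/d replicate 3 (0.02). Another annotated gene shares 86.4% of its exon bases.

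Genes that work beside the members were counted from lists of the pathway. Of 9 genes for class I peptide supply and folding, 0 met the study's threshold, with a median log2 difference of 0.22. Of 12 genes of the interferon gamma pathway upstream of the histocompatibility genes, Socs1 alone, a feedback inhibitor of the pathway, met it, with a log2 difference of 0.64 (adjusted p = 0.172 from limma). Socs1 missed it when Nr2f2 f/f replicate 2 (0.46) or Nr2f2 d/d replicate 3 (0.46) was left out. Of 8 enzymes and ligases of the class II compartment, Lgmn alone, which encodes the asparagine endopeptidase legumain, met it, with a log2 difference of -0.62 (adjusted p = 0.0517 from limma). Of 7 genes for the factors that bind class II promoters, 0 met it, and of 6 class I-like genes outside the H2 names 4 were tested and 0 met it. The adjusted threshold was passed by 0 genes of these 5 lists in limma's test. With quantile normalization Lgmn passed it (log2 difference -0.72, adjusted p = 0.0469 from limma).

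Because whole tissue was measured, more cells of a type and more mRNA per cell cannot be told apart, and markers of the cells that carry these molecules were read beside them. Ptprc, the pan-leukocyte gene CD45, had 11.2, 18.2, 13.4 and 12.5 FPKM in Nr2f2 f/f and 14.5, 13.8, 8.14 and 18.7 FPKM in Nr2f2 d/d, a log2 difference of -0.03 (95% interval -0.60 to 0.53, adjusted p = 0.951 from limma). The sign of Ptprc turned when Nr2f2 f/f replicate 2 was left out (0.10) and when Nr2f2 d/d replicate 3 was (0.19). Its lowest value was that of Nr2f2 d/d replicate 3. The summed FPKM of 4 leukocyte markers was 59.0 to 85.2 in Nr2f2 f/f and 65.5 to 121 in Nr2f2 d/d, and 0 of 4 met the study's threshold. Besides Ptprc these were Laptm5, Coro1a and Cd53, with positive log2 differences of 0.46, 0.38 and 0.30 and overlapping groups. Macrophage markers summed to 173 to 313 FPKM in Nr2f2 f/f and 222 to 340 FPKM in Nr2f2 d/d, with 0 of 9 at the threshold. Their log2 differences were positive in 8 and negative in 1, with a median of 0.31. The macrophage sum was highest in Nr2f2 d/d replicate 1 and lowest in Nr2f2 f/f replicate 1. Among the Nr2f2 d/d uteri it was lowest in replicate 3, and the class II sum had the same order in these respects. Dendritic cell markers summed to 13.2 to 23.6 FPKM in Nr2f2 f/f and 9.85 to 19.6 FPKM in Nr2f2 d/d, and of 7 tested 1, Cd209a, was lower at the threshold. The ratio of H2-Aa, H2-Ab1, H2-Eb1 and Cd74 together to the macrophage markers was 1.68 to 2.72 in Nr2f2 f/f and 2.15 to 2.57 in Nr2f2 d/d, and that to the 4 leukocyte markers 4.93 to 6.96 and 5.32 to 8.92.

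Some lymphoid and neutrophil markers moved with the genotype. NK cell markers summed to 48.1 to 64.7 FPKM in Nr2f2 f/f and 88.9 to 340 FPKM in Nr2f2 d/d, with 3 of 6 higher at the threshold. Those 3 were Gzma, Gzmb and Prf1, which encode proteins of cytotoxic granules, with log2 differences of 2.40, 1.69 and 1.06. The receptor genes Ncr1 and Klrb1c and the factor Eomes did not meet it, with log2 differences of 0.27, 0.26 and 0.10 and overlapping groups. T cell markers summed to 2.03 to 3.05 FPKM in Nr2f2 f/f and 4.84 to 9.79 FPKM in Nr2f2 d/d, with 3 of 3 tested higher. Of these, Cd3e and Cd3d averaged 0.281 and 0.3745 FPKM in Nr2f2 f/f and passed the filter on low values through Nr2f2 d/d only. They had to be higher there once tested, which leaves Cd3g. Cd4, Cd8a and Cd8b1 were below the filter. B cell markers summed to 1.05 to 1.29 FPKM in Nr2f2 f/f and 1.89 to 3.41 FPKM in Nr2f2 d/d, and the 1 tested, Cd79b, was higher. Neutrophil markers summed to 2.96 to 16.5 FPKM in Nr2f2 f/f and 17.7 to 41.0 FPKM in Nr2f2 d/d, with 2 of 3 tested, S100a8 and S100a9, higher at the threshold and Csf3r not. Of 6 epithelial markers 3 were higher at the threshold, Krt8, Krt19 and Krt7, and the sum of all 6 was 470 to 565 FPKM in Nr2f2 f/f and 664 to 830 FPKM in Nr2f2 d/d. Epcam, Krt18 and Cdh1 did not meet it, with log2 differences of 0.06, 0.06 and 0.30 and overlapping groups. Endothelial markers were lower, 158 to 219 FPKM against 92.8 to 115 FPKM with 5 of 5 at the threshold. Of 6 stromal markers 2 were higher and 1 lower at the threshold, of 5 smooth muscle markers 0 met it, and of 4 mesothelial markers 2 were higher. No marker of these lists was at 0 in all libraries. The part of these cells in the values of the class I, class II and immunoproteasome genes was not tested.

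**Figure D5:**
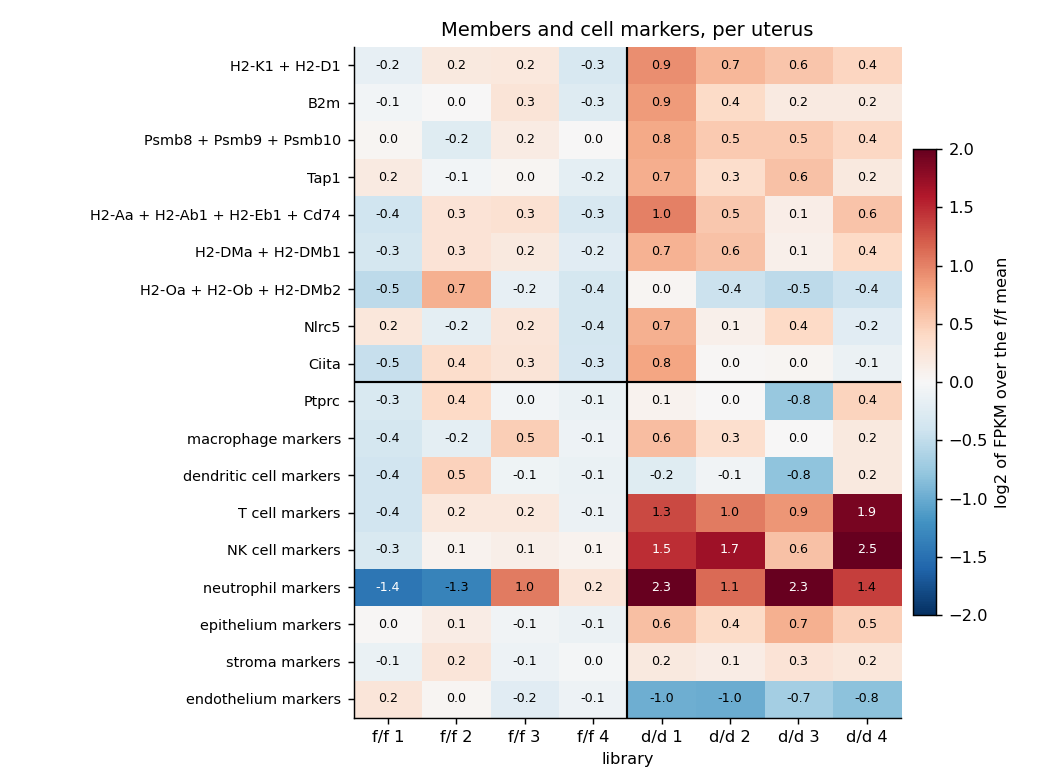
Log2 ratio of FPKM, or of summed FPKM, in each uterus to the Nr2f2 f/f mean, for members (above the line) and cell markers (below it). Colour and number give the same value, red for higher and blue for lower, and colours stop at 2 in either direction. The class II and macrophage rows share their highest library, Nr2f2 d/d replicate 1, and their lowest, Nr2f2 f/f replicate 1, and differ in sign at Nr2f2 f/f replicate 2 (0.281 and -0.192). The T and NK cell sums are highest in Nr2f2 d/d replicate 4.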

How the data were processed

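RNA from 8 uteri was analysed, 4 Nr2f2 f/f and 4 Nr2f2 d/d, grouped by the sample labels and numbered as in the titles. The authors trimmed 76-bp read pairs with cutadapt 1.12, aligned them to mm10 with STAR 2.5.2b, counted pairs per gene with featureCounts 1.5.0-p1 and deposited FPKM. The submitters' notes also name Cufflinks 2.0.2. How FPKM were calculated, on which annotation and with which strand setting, is not given in the sources used here. FPKM are relative to a library's total and gene lengths, so near-identical or overlapping genes are uncertain. All value columns matched a sample.

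FPKM were taken to log2 after adding 0.5. Genes whose mean reached 0.5 FPKM were tested with limma 3.58.1 in R 4.3.3 (lmFit, eBayes with trend, two-sided), with Benjamini-Hochberg adjustment over all 14323. This replaced the DESeq2 count test of the study's methods, since counts were not used here. Exact permutation tests were two-sided over 70 arrangements. The model was also run on simulated data, and the outcome of that run is not reported here. Library totals came from single-exon genes of 50 to 200 bases, of which 84.9% to 88.3% gave whole fragments to within 0.1 at 1 total, against medians of 13.6% to 15.4% at other totals. Coordinates are from GENCODE vM21 on mm10, which matched 50 of 54 members.

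Members, classes, lists and motifs were chosen with earlier results of these data known. Named with values were members past either threshold, a list of class I, class II and loading genes, Nr2f2, Ptprc, list genes past a threshold and other markers of the same lists. H2-M1, H2-M2, H2-M11, H2-Eb2, H2-Oa, H2-Ob, H2-DMb2, Tap2, Tapbp and Ctsd were singled out after their values were seen. Of 5 motifs searched, 1 is not reported here. Alternatives were other added values, filters and scalings, eBayes without trend or robust, replicate blocks and each library left out.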

Additional observations from a re-analysis of the deposited data

Results flagged for a closer look

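In 7 of 66 groups of 4 values the highest library stood apart from the other 3 by Dixon's criterion, which chance alone meets in about 1 in 20 groups. Nr2f2 f/f replicate 2 stood apart for H2-Oa (1.997 FPKM against 0.991 to 1.056 in the other 3), H2-Ob (2.694 against 1.047 to 1.312) and H2-K2 (7.039 against 2.713 to 2.976). Nr2f2 d/d replicate 1 stood apart for Psmb8 (88.055 FPKM against 65.904 to 69.325), Ciita (2.37 against 1.265 to 1.414) and H2-DMb2 (1.957 against 1.112 to 1.248). Nr2f2 d/d replicate 4 stood apart for H2-T-ps (5.586 FPKM against 2.173 to 2.251).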

How the results depend on the processing

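Counts were taken again under 10 other settings and with each of the 8 libraries left out. The number of members with an adjusted p under 0.05 in limma was 4 in place of 2 with median-ratio scaling, where H2-D1 (0.0468) and Psmb10 (0.0394) joined, and the number at the study's threshold was 12 in place of 13 with 1 FPKM added before the log2, which lost H2-DMa, and 6 with quantile normalization, where 7 calls were lost, at log2 differences of 0.406 to 0.523. Of all threshold calls, 744 were higher and 505 lower with median-ratio scaling, against 673 and 587. No label ties a replicate number to a shared litter or batch, and same-numbered libraries did not deviate together (correlations of -0.204 to 0.0452 by title, -0.204 to 0.149 by description). With the replicate block by title 0 members and 1 of all genes passed, and with the block by description, on 6 libraries, 0 members and 0 genes passed, with adjusted p from limma of 0.0714 and 0.0686 for H2-M9 and 0.134 and 0.103 for Psmb9. At the study's threshold the block by title left 9 members, without Cd74, H2-Aa, H2-Ab1 and H2-Eb1 (highest unadjusted p = 0.0908 from limma). The block by description gave 15, without Psmb8 and with H2-DMb1, H2-Q5 and H2-T23, and Socs1 fell to 0.281 there.

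With 1 library left out in turn, limma's adjusted p was under 0.05 for 1 to 2 members, of which H2-M9, which had to differ once tested, is always 1 and Psmb9 the other in 4 of 8 fits, and for 42 to 347 of all genes. The study's threshold was met by 5 to 15 members. The log2 ratio of Psmb9 to Psmb6 was 0.385 to 0.572 and that of Psmb10 to Psmb7 was 0.256 to 0.327, where 3 against 4 cannot give a permutation p below 0.0571. Of 39 genes whose log2 difference was taken again, 6 changed sign under at least 1 setting, and none of the 6 met a threshold with all libraries. With the block by description H2-DMb2 was at 0.216, H2-K2 at 0.216, H2-Ke6 at 0.009, H2-Oa at 0.038 and Ptprc at 0.324, and with median-ratio scaling H2-Ke6 was at 0.004. With 1 library left out H2-DMb2 ranged from -0.252 to 0.146, H2-K2 from -0.227 to 0.183, H2-Ke6 from -0.075 to 0.022, H2-Oa from -0.21 to 0.04, H2-T10 from -0.197 to 0.275 and Ptprc from -0.196 to 0.188.

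Depth limits the scarce members: values under 0.0324 to 0.0488 FPKM on a gene of 1 kb rest on fewer than 3 fragments. H2 copies cannot be told apart where their sequences are the same.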

Other observations

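Ctsd, the gene of the lysosomal protease cathepsin D, was the most abundant gene of the class II compartment list in FPKM and varied within each group by more than the groups' means differed. It had 2305, 596, 2258 and 2664 FPKM in replicates 1 to 4 of Nr2f2 f/f and 2848, 3368, 652 and 3275 FPKM in those of Nr2f2 d/d. Nr2f2 f/f replicate 2 and Nr2f2 d/d replicate 3 were the low libraries in their groups. Ctss, the cathepsin that trims the invariant chain, had 32.6, 42.5, 69.3 and 37.1 FPKM in Nr2f2 f/f and 95.1, 56.6, 55.4 and 50.8 FPKM in Nr2f2 d/d, with overlap between the groups.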
